A study of Mus musculus with 6 samples.

Results

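The genes described here are 7 genes of the B cell receptor complex and the surface of mature B cells, read by symbol from a table of 21606 genes: Ms4a1, Cd79a, Cd79b, Pax5, Cd22, Cd37 and Fcmr. They were measured by 3' end RNA sequencing in ALDHbr cells, a bone marrow fraction sorted for bright aldehyde dehydrogenase activity, from wild-type C57BL/6 mice. There were 3 libraries from male mice and 3 from female mice, and the labels give no age. Nothing in the labels ties a replicate to its own animal, and p-values reflect the spread among these libraries, which may be technical.

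A mature B cell carries a surface antibody that cannot signal alone. CD79A and CD79B, the products of Cd79a and Cd79b, form a pair beside it whose tails pass the signal into the cell. CD22, a lectin that binds sialic acid, damps that signal, and FCMR is a receptor for the constant part of IgM. CD20, the product of Ms4a1, is a membrane protein of B cells from the late precursor stage to the mature cell. CD37 is a tetraspanin, a membrane scaffold protein, of mature B cells that other leucocytes also make. Pax5 encodes the transcription factor that commits a precursor to the B lineage, and it acts with EBF1 and E proteins on genes such as Cd79a. Plasma cells, the antibody-secreting end stage, lose PAX5 and CD20.

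Bases before a RefSeq start site of Cd79a and of Cd22 show the letters searched near members of the set. RefSeq start sites (build GRCm38.p6) matched 5 of the 7 members, all but Ms4a1 and Cd79b, and the 250 bases before each start were searched on both strands. The searched letters were ATGCAAAT, the octamer bound by Oct factors, CCCNNGGG, a core of EBF1 sites, GAGGAAG, bound by PU.1, and CAGGTG, an E-box of E proteins. No pair of matches overlapped other than the match in Cd22 to CCCNNGGG, a pattern that reads the same on both strands and was found on each. The stretches below are free of annotated exons of their gene, run 5′ to 3′ on the gene's strand, and carry the matches in capitals. The first is chr7:24897281-24897380 on the plus strand, with the E-box letters starting 154 bases before the start site, and the second is chr7:30879029-30879128 on the minus strand, with the EBF1 core starting 48 bases before it. The start sites used for Cd79a, Fcmr, Cd22 and Cd37 lie inside the annotated span of the gene. The Cd79a stretch ends next to that gene's annotated 5′ end at 24897381, so its E-box letters lie nearer to that end than to the start used. The Cd22 stretch is downstream of that gene's outermost 5′ end.
Cd79a: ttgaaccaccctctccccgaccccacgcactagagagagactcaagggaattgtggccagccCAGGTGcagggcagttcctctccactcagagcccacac
Cd22: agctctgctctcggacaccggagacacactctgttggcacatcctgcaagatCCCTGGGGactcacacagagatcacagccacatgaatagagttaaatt
Cd22 also held CAGGTG at 245 bases, and Cd37 held GAGGAAG at 24 bases and CAGGTG at 175 bases before the start, all on the reverse strand. None of the 4 sets of letters was present in the windows of Pax5 or Fcmr. Over all 32851 promoter windows of this length, the octamer was present in 1.60%, the EBF1 core in 11.8%, the PU.1 letters in 10.6% and the E-box in 17.2%.

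The libraries held from 679724 to 880074 counts in males and from 1199551 to 1475224 in females, so that females had 1.65 times as many counts. Levels are therefore given as counts per 1e+06 counts (CPM) of library sizes scaled by TMM, a method that fits 1 scaling factor to each library. The defining genes of myeloid progenitors were abundant, with Mpo, the gene of myeloperoxidase, at 6332 ± 284 CPM in males and 7639 ± 224 CPM in females (SD, n = 3 each). The 7 mature B cell genes were rare beside them. They summed to 319 counts in males and 735 in females, which was 0.0167%, 0.0124% and 0.0108% of the counts in male replicates 1 to 3 and 0.0174%, 0.0189% and 0.0192% in female replicates 1 to 3. In bulk RNA, fewer cells of a type and less RNA per cell cannot be told apart.

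Ms4a1 was the member that fell in males, to 0.188 times the female level, while Cd79b and Cd37, which made up most of the counts, did not pass the test. Fcmr, Cd22 and Pax5 also had lower ratios in males but too few counts to be tested, and Cd79a had about the same level in both sexes. All 7 members had counts in every female library. In males, all 7 were found in replicate 1 and 6 in replicates 2 and 3, where Pax5 was at 0.

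**Figure D1:**
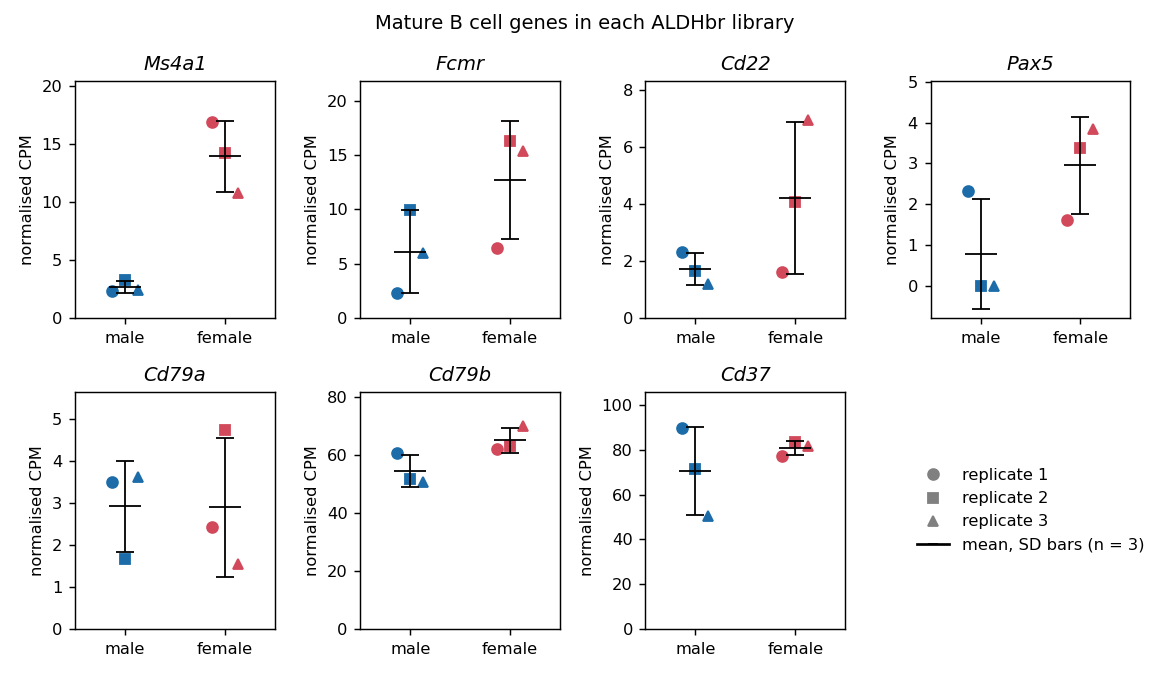
Normalised CPM (vertical axes, each with its own scale) of the 7 genes in the 3 male and 3 female libraries; points are libraries, horizontal marks means and bars SD (n = 3). Male and female points lie apart for Ms4a1, with males at 2.33 to 3.33 and females at 10.8 to 16.9 CPM, and narrowly for Cd79b, and overlap for the other 5.

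Ms4a1 (chromosome 19, 11249675 to 11266241, minus strand, GRCm38) had 2 counts in each of the male libraries and 21, 21 and 14 counts in female replicates 1 to 3. As levels, these were 2.33, 3.33 and 2.41 CPM in males and 16.9, 14.2 and 10.8 CPM in females. Every male library lay below every female one. The ratio of summed counts, male over female, was 0.188 with an exact 95% counting interval of 0.0662 to 0.435. Fitted across all genes, the log2 fold change was -2.36 ± 0.48 (SE), with a Benjamini-Hochberg adjusted p of 0.0131 in edgeR's quasi-likelihood test. Ms4a1 reached the level needed for testing, 9.62 CPM of unscaled library size in 3 libraries, through the female libraries alone. It could therefore enter the test only as a gene that is higher in females.

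The call on Ms4a1 depended on single libraries and on the tool, while the size of the difference moved little. Without male replicate 3 the log2 fold change was -2.30 and the adjusted p 0.139. Without female replicate 1 or 2, Ms4a1 no longer reached the testing level; with the tested genes held as in the fit of all libraries, it passed without female replicate 1 (log2 fold change -2.21, adjusted p = 0.0454) and not without female replicate 2 (-2.33, adjusted p = 0.0549) in the same edgeR test. DESeq2 gave -2.40 ± 0.73 (adjusted p = 0.132) and limma-voom -2.09 ± 0.48 (adjusted p = 0.0520), so that neither called it. Over all alternatives the fold change of Ms4a1 lay between -2.51 and -2.09.

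**Figure D2:**
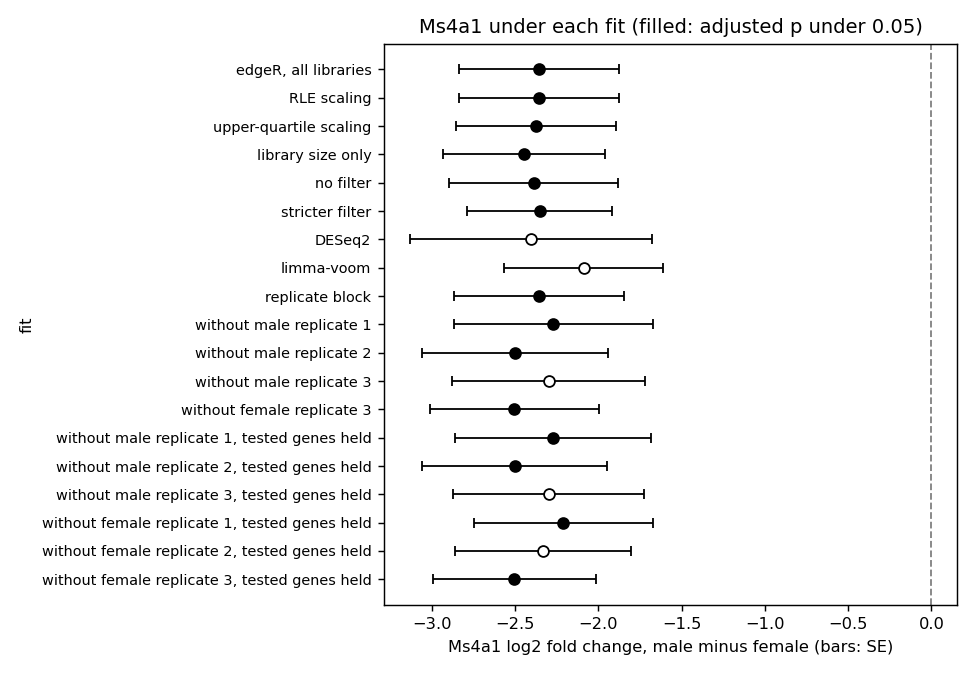
Log2 fold change of Ms4a1, male minus female (horizontal axis), under each fit (rows); points are estimates, bars SE, and filled points have an adjusted p under 0.05. The estimates lie between -2.51 and -2.09, all below 0, and open points mark 5 of 18 alternatives where the call was lost. The filtered fits without female replicate 1 or 2, in which Ms4a1 fell below the testing level, are not shown.

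Of the 7 members, 3 were tested and 1 of these, Ms4a1, was called lower in males. The same rule called 0.154% of all 8460 tested genes lower and 0.426% higher. Ms4a1 could enter the test only as higher in females, and the members were chosen with earlier results of these data known. The count of members beside these shares is therefore no test of the set. No member was called higher, and of the 3 tested Ms4a1 alone was below an unadjusted p of 0.05 by edgeR. Of all 8460 tested genes, 959 were below that unadjusted threshold by edgeR, in either direction, which is also the background for the lists below. DESeq2 called 0.0827% of the tested genes lower in males and limma-voom 0.0946%, with no member among them. All 3 female libraries lay above all 3 male ones for Ms4a1 and Cd79b, an order that 8.03% of all tested genes showed. The median log2 fold change of all tested genes was -0.0030.

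Cd79b (chromosome 11, 106311341 to 106314762, minus strand) had 52, 31 and 42 counts in male replicates 1 to 3 and 77, 93 and 91 in female replicates 1 to 3. Its levels were 60.6, 51.6 and 50.6 CPM in males and 62.0, 63.0 and 70.0 CPM in females. The sexes did not overlap, but male replicate 1 and female replicate 1 differed by little. The log2 fold change was -0.25 ± 0.16 (SE), which did not pass (adjusted p = 0.587, edgeR's quasi-likelihood test), and the counting interval of the ratio, 0.673 to 1.04, included 1.

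Its partner Cd79a (chromosome 7, 24897381 to 24902197, plus strand) was close to the limit of counting. It had 3, 1 and 3 counts in male replicates 1 to 3 and 3, 7 and 2 counts in female replicates 1 to 3, or 3.49, 1.66 and 3.61 CPM in males and 2.42, 4.74 and 1.54 CPM in females. The sexes overlapped, and the ratio was 1.02 with a counting interval of 0.341 to 2.82. That interval leaves room for a difference in either direction.

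The 2 genes of the signalling pair thus stood far apart in level. Cd79b had 17.9 times the counts of Cd79a in males (exact 95% interval 8.42 to 45.3) and 21.8 times in females (12.2 to 42.6). Annotated exons cover nearly the same length, 1431 bases for Cd79b and 1457 bases for Cd79a, so the gap was as wide per length: 41.7 ± 5.16 and 1.998 ± 0.861 CPM per kilobase of exon (SD, n = 6 libraries). In single libraries there were from 3.23 to 7.14 Cd79a counts per 100 Cd79b counts in males and from 2.198 to 7.53 in females. No annotated gene overlaps either of them. Reads come from 3' ends, so a gene whose annotated end differs from the end in these cells could be undercounted, and this was not tested.

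Cd37 (chromosome 7, 45233632 to 45239115, minus strand) was the member with the most counts. It had 89.7, 71.5 and 50.6 CPM in male replicates 1 to 3, a spread wider than that of the female ones at 77.3, 83.3 and 81.6 CPM. Male replicate 1 was the highest of all 6 libraries and male replicate 3 the lowest, so the sexes overlapped. The log2 fold change of -0.19 ± 0.17 did not pass (adjusted p = 0.729, edgeR's quasi-likelihood test) and changed sign without male replicate 3, to 0.016.

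Fcmr (chromosome 1, 130865669 to 130880791, plus strand) had 2, 6 and 5 counts in male replicates 1 to 3 and 8, 24 and 20 in female replicates 1 to 3. The levels were 2.33, 9.98 and 6.02 CPM in males and 6.44, 16.3 and 15.4 CPM in females, with male replicate 2 above female replicate 1. Fcmr was not tested in the filtered fit of all libraries, because by unscaled library size male replicate 2 fell below the testing level. The ratio was 0.439 with a counting interval of 0.219 to 0.817, below 1 as for Ms4a1 and for no other member. Counting intervals leave out the spread between libraries. In the fit without a filter on low counts, which tested all 21606 genes and called 0.162% of them lower in males, Fcmr had a log2 fold change of -1.20 ± 0.43 (edgeR, unadjusted p = 0.00499 and adjusted p = 0.288) and did not pass.

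Cd22 (chromosome 7, 30865402 to 30880342, minus strand) had 2, 1 and 1 counts in male replicates 1 to 3 and 2, 6 and 9 in female replicates 1 to 3. In CPM these were 2.33, 1.66 and 1.20 in males and 1.61, 4.06 and 6.93 in females, so female replicate 1 lay within the male range. The ratio was 0.413 (counting interval 0.101 to 1.27). Pax5 (chromosome 4, 44524757 to 44710487, minus strand) had 2 counts in male replicate 1, 0 in the other 2 male libraries, and 2, 5 and 5 counts in female replicates 1 to 3. A count of 0 allows up to 4.99 CPM in male replicate 2 and 3.61 CPM in male replicate 3, levels near or above the 1.61, 3.39 and 3.85 CPM of the female libraries. The ratio for Pax5 was 0.292 with a counting interval of 0.0318 to 1.31, which included 1. Annotated antisense genes cover 479 exon bases of Cd22 and, as 2 separate genes, 636 and 125 exon bases of Pax5, and the sources used here do not state the strand setting of the counting.

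**Figure D3:**
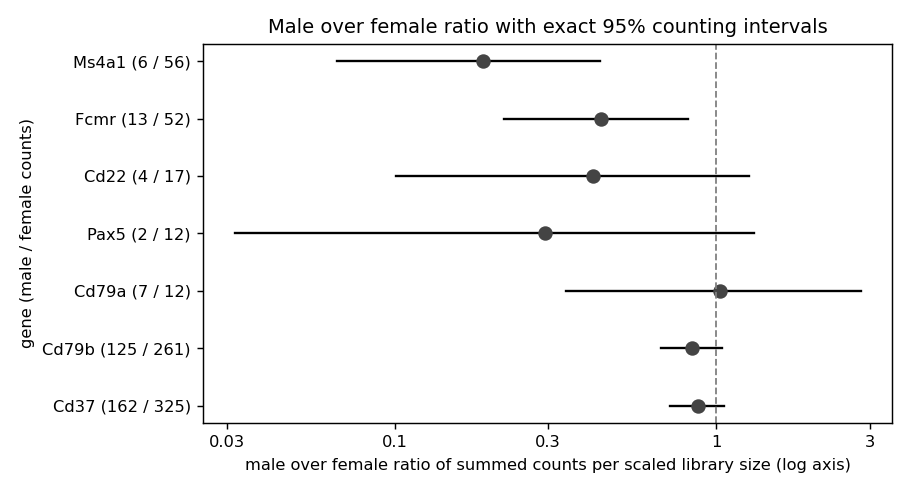
Ratio of summed counts per scaled library size, male over female (log axis), for each of the 7 genes, with exact 95% counting intervals; labels give male and female counts, and the dashed line marks 1. The intervals lie wholly below 1 for Ms4a1 (0.0662 to 0.435) and Fcmr (0.219 to 0.817) and include 1 for the other 5.

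Within a library, ratios of raw counts do not depend on scaling. Male replicates 1 to 3 held 3.85, 6.45 and 4.76 Ms4a1 counts per 100 counts of Cd79b, and female replicates 1 to 3 held 27.3, 22.6 and 15.4. Against Cd37, there were 2.60, 4.65 and 4.76 Ms4a1 counts per 100 in males and 21.9, 17.1 and 13.2 in females. The sexes lay apart on both ratios. For Fcmr per 100 Cd79b counts, the male libraries had 3.85, 19.4 and 11.9 and the female ones 10.4, 25.8 and 21.98, and the sexes overlapped. These ratios were chosen after the values were seen and carry no test.

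**Figure D4:**
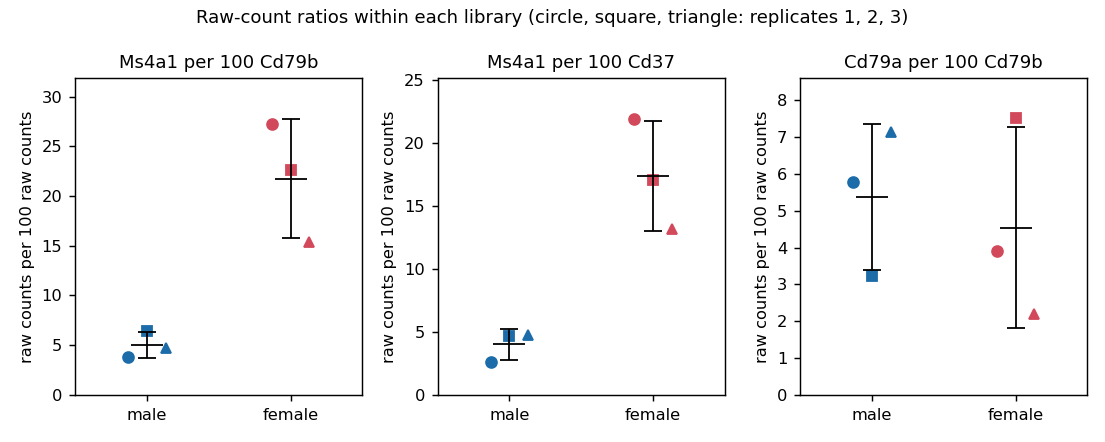
Raw counts of one gene per 100 raw counts of another (vertical axes) in the 3 male and 3 female libraries; points are libraries, horizontal marks means and bars SD (n = 3). Ms4a1 lies between 3.85 and 6.45 per 100 Cd79b in males and between 15.4 and 27.3 in females, while Cd79a per 100 Cd79b overlaps between the sexes.

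As a set, the 7 genes summed to 163, 139.7 and 114 CPM in male replicates 1 to 3 and 168, 189 and 190.1 CPM in female replicates 1 to 3. Cd37 and Cd79b together took from 88.1% to 92.1% of the members' counts in males and from 77.4% to 82.8% in females, so the sum mostly follows these genes. Ms4a1 took 1.88% of the members' counts in males (exact 95% interval 0.693% to 4.05%) and 7.62% in females (5.81% to 9.78%). Without Cd37, the sum was 73.4, 68.2 and 63.9 CPM in males and 91.0, 105.7 and 108.5 CPM in females.

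Per kilobase of annotated exon, the order of levels over the 6 libraries was Cd79b, Cd37 at 21.5 ± 3.89 CPM per kilobase (SD, n = 6), Fcmr at 5.42 ± 3.19, Cd79a, Ms4a1 at 1.35 ± 1.05, Cd22 at 0.588 ± 0.434 and Pax5 at 0.210 ± 0.186. Cd79b exceeded Cd37, and Cd37 exceeded Fcmr, in 6 of 6 libraries. Fcmr exceeded Cd79a in 5 of 6, Cd79a exceeded Ms4a1 in 4 of 6, and Ms4a1 exceeded Cd22 in 5 of 6, so these neighbours were not separated beyond their spread. The place of Ms4a1 differed by sex, at 0.435 CPM per kilobase in males and 2.26 in females, against Cd79a at 2.01 in males and 1.99 in females. Reads from 3' ends do not grow with gene length, and by plain CPM over the 6 libraries Cd37 (75.7) lay above Cd79b (59.6), and Ms4a1 (8.33) above Cd22 (2.97) and Cd79a (2.91).

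Other genes of the B lineage were read from 6 lists holding 64 genes of the table that are not members, of which 28 were tested, 1 fell, 1 rose and 26 did not pass. The gene that fell was Pou2af1, a coactivator of Oct factors in B cells, with 2, 3 and 4 counts in male replicates 1 to 3 and 19, 23 and 21 in female replicates 1 to 3. Its log2 fold change was -1.96 ± 0.42 (adjusted p = 0.0193, edgeR's quasi-likelihood test), and the call was lost by DESeq2 (adjusted p = 0.175), by limma-voom (0.0794) and without any 1 library other than male replicate 1 (from 0.0519 to 0.116). Like Ms4a1, Pou2af1 reached the testing level through the female libraries alone, with no male library above 4.99 CPM, so that it could enter the test only as a gene that is higher in females. The 7 untested transcription factor genes of the B lineage held 61 counts in males and 152 in females, a scaled ratio of 0.704, and 6 of the 7 were lower in males. The gene that rose was Dntt, which adds bases at antibody gene joints in early lymphoid cells, with a log2 fold change of 1.02 ± 0.18. The sexes lay apart in opposite directions for Pou2af1 and Dntt.

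Of 18 genes of B cell receptor signalling, 12 were tested and none passed by edgeR, DESeq2 or limma-voom, with 2 at an unadjusted p under 0.05 by edgeR and a median log2 fold change of -0.06. Many of these also work in myeloid cells, such as the phosphatase gene Ptpn6, at 236 ± 20.5 CPM in males and 239 ± 44.7 CPM in females, and the exchange factor gene Vav1, at 131 ± 6.33 and 142 ± 12.1 CPM in males and females (SD, n = 3 each). The 6 untested genes of the list, among them Blk and Blnk, held 34 counts in males and 99 in females, a scaled ratio of 0.603, and 4 of the 6 were lower in males.

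Of 15 other surface genes of mature B cells, 3 were tested and none passed by the same 3 tools, nor at an unadjusted p under 0.05 by edgeR. Tnfrsf13b, the gene of the cytokine receptor TACI, had 61.9 ± 12.1 CPM in males and 69.0 ± 6.31 CPM in females, and Cd180, a Toll-like receptor homologue, had 40.95 ± 6.91 CPM in males and 43.5 ± 7.94 CPM in females (SD, n = 3 each). The 12 untested genes held 51 counts in males and 144 in females, a scaled ratio of 0.621, with 8 of the 12 lower in males. Of these counts, 4 in males and 36 in females came from Ltb, the gene of lymphotoxin beta. The share of all untested genes lower in males was not computed, so such tallies, here and in the other lists, have no background. Ltb had 2, 1 and 1 counts in male replicates 1 to 3 and 5, 21 and 10 in female replicates 1 to 3. It was called lower in males without a filter (log2 fold change -2.31 ± 0.62, edgeR, adjusted p = 0.0417). It is named here after its values were seen.

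Genes of other stages and cell types were counted beside the members. Of 9 listed precursor genes in the table, the 7 too low to test held 35 counts in males and 46 in females, a scaled ratio of 1.33, and 4 of the 7 were higher in males. These 4 were Vpreb1, Igll1, Rag1 and Rag2, which build or stand in for the receptor before it is complete, while Il7r, Vpreb3 and Lef1 were lower. All 7 overlapped between the sexes, and Igll1 had 0, 0 and 6 counts in male replicates 1 to 3. Of 4 tested plasma cell genes none passed by the 3 tools or at an unadjusted p under 0.05, and Jchain, which links antibody units, had 674 ± 131 CPM in males and 717 ± 5.08 CPM in females (SD, n = 3 each). Ighm, the constant gene of IgM, had 3174 ± 334 CPM in males and 3659 ± 461 CPM in females, and Igkc, that of the kappa light chain, had 5760 ± 434 and 7496 ± 674 CPM in males and females. Neither passed by the 3 tools, with Igkc at an unadjusted p of 0.0101 by edgeR's quasi-likelihood test. Antibody transcripts were thus abundant where Ms4a1 and Pax5 were rare; plasma cells and B cells both make them.

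MHC class II genes, which mature B cells share with dendritic cells and some monocytes, were lower in males for 3 of 6 tested genes, Cd74, H2-Aa and H2-Eb1, with none higher and a median log2 fold change of -1.04 over the 6. The median includes H2-DMb2, which reached the testing level through the female libraries alone and so could enter only as higher in females. H2-DMb2 had 3.49, 8.32 and 7.23 CPM in male replicates 1 to 3 and 12.9, 12.2 and 14.6 CPM in female replicates 1 to 3. H2-Aa had 14.7 ± 3.62 CPM in males and 36.8 ± 9.55 CPM in females (SD, n = 3 each). Summed over the list, levels ran from 298 to 334 CPM in males and from 398 to 477 CPM in females. DESeq2 and limma-voom called 1 of the 6, Cd74. In edgeR, none of the 3 passed without female replicate 2 (adjusted p = 0.0544 for Cd74, 0.155 for H2-Aa and 0.237 for H2-Eb1) or male replicate 3 (0.102, 0.0923 and 0.210), and H2-Eb1 did not pass without female replicate 3 (0.0883) or male replicate 2 (0.122). Of the dendritic cell list, 2 of 6 genes were tested, Flt3 at 97.9 ± 6.83 and 75.5 ± 3.69 CPM and Bst2 at 188 ± 43.2 and 173 ± 9.06 CPM in males and females, and neither passed by the 3 tools (1 at an unadjusted p under 0.05 by edgeR). The part of cell types other than B cells in the class II difference was not tested.

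Of the list of T and natural killer cells, the defining genes Cd3d, Cd3g and Klrb1c had between 0 and 3 counts in any library. Lck, a kinase gene of T cells, had counts in all 6 libraries, 2, 3 and 3 in male replicates 1 to 3 and 4, 7 and 6 in female replicates 1 to 3, and Cd4 had 0 in males and 2, 0 and 4 in female replicates 1 to 3. The 5 untested genes of the list held 11 counts in males and 28 in females, a scaled ratio of 0.689. The gene tested was Nkg7, at 161 ± 8.29 CPM in males and 134 ± 8.53 CPM in females. It did not pass. The 6 myeloid progenitor genes were all tested and none passed by the 3 tools or at an unadjusted p under 0.05, with a summed level from 13144 to 14152 CPM in males and from 14732 to 15415 CPM in females. Of 6 erythroid genes 2 were tested and both rose, Car1 and Car2, and the list summed to 214 to 351 CPM in males and 92.6 to 107 CPM in females.

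The 6 libraries shared a pool of 16 barcoded samples with 10 lung samples not analysed here, and lung itself holds B cells. Transcripts of lung epithelium were present in every library: Sftpc, the gene of surfactant protein C, had 140 ± 70.4 CPM in males and 71.4 ± 18.2 CPM in females (SD, n = 3 each). The 5 lung genes summed to 221 to 439 CPM in males and 142 to 194 CPM in females, higher in males, where Ms4a1 was lower. None of the 4 tested passed by the 3 tools, with 3 at an unadjusted p under 0.05 by edgeR. The part of RNA from other samples of the pool in the members' counts was not tested.

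The genes whose levels ran most like the members were ranked by Pearson's r of log2 CPM over the 6 libraries with the summed level of the 6 members other than Cd37, which Cd79b dominates. The first 5 were Sharpin (r = 0.991), a subunit of a ubiquitin ligase, Mpo (0.987), Kdm6a (0.984), an X-linked histone demethylase gene, Itga6 (0.979), an integrin subunit, and Exoc6 (0.972), a subunit of the exocyst. All 5 had every female library above every male one, as had the members' sum, and none passed the test. Itga6, for example, had 34.9 ± 1.18 CPM in males and 45.6 ± 4.22 CPM in females (SD, n = 3 each), with a log2 fold change of -0.39 ± 0.19. Among genes of the 6 B lineage lists, Pou2af1 had the highest r, 0.851, at rank 217, followed by Lyn (0.831) and Igkc (0.811). Other genes of these lists were near 0, such as Jchain (0.114), or ran the other way, such as Cd81 (-0.543) and Bcl10 (-0.426). The class II genes H2-Eb1 (0.946), Cd74 (0.896), H2-Ab1 (0.883) and H2-Aa (0.855) ranked above Pou2af1. Of the same list, H2-DMb2 (0.713) ranked below Pou2af1 and H2-DMa (-0.512) ran the other way.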

How the data were processed

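The authors deposited raw counts per gene, whole numbers without normalisation, per the file headers. Per the labels' protocols, libraries were made by BRB-seq, in which barcoded samples are pooled and read from 3' ends with a molecular identifier. The submitters' processing notes name HISAT2 2.2.1, Trim Galore 0.6.7, UMI-tools, DESeq2 and featureCounts 2.0.1, and the builds GRCm38 and GRCh38. The sources used here do not state whether identifiers were collapsed, and intervals and floors (3 counts) cover counting error only. All 21606 gene identifiers matched GENCODE M21 (GRCm38), whose coordinates and exons are used.

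Genes were filtered with filterByExpr (minimum count 10, minimum total 15), scaled by TMM and tested, male minus female with no covariate, by edgeR 4.0.16 (R 4.3.3) with Benjamini-Hochberg adjustment at 0.05 over 8460 genes. The steps were run on simulated counts that gave every gene the same dispersion. That run checks the working of the steps and not calls at low counts such as that of Ms4a1. Alternatives were other scalings and filters, DESeq2 1.42.0, limma-voom (limma 3.58.1), a replicate block and leaving out each library; holding the tested genes was added after seeing the data. Genes were named by a rule: all members, up to 4 passing genes of each of 11 lists or else its 2 most abundant, and the 5 genes most like the members (log2 of CPM plus 0.5). Ltb, Blk, Blnk and the genes at low counts were named after their values were seen, and so was the lung list. The members and lists were chosen with earlier results of these data known. A gene of the lists is not reported here and was left out of their counts.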

Additional observations from a re-analysis of the deposited data

How the results depend on the processing

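Ms4a1 kept its direction in all 18 alternatives that gave a value and its call in 13. In the filtered fits without female replicate 1 or 2 it fell below the testing level and was not called. Cd79b kept its direction and stayed uncalled in all 20. Cd37 lay between -0.44 and 0.016 when leaving out each library, and changed sign, to 0.016, without male replicate 3, also with the tested genes held. The number of members called lower, 1, was 0 by DESeq2 and limma-voom and 0 to 1 when leaving out each library, also with the tested genes held; the number called higher was 0 throughout. Of the B lineage lists, 1 gene was called lower, against 2 scaled by library size only or without a filter, 0 by DESeq2 and limma-voom, and 0 to 2 when leaving out each library. Over all genes, 13 were called lower, against 23 scaled by library size only, 35 without a filter, 7 by DESeq2, 8 by limma-voom, 22 with a replicate block and 4 to 78 when leaving out each library. Called higher were 36, against 81 without a filter, 56 with a replicate block and 19 to 337 when leaving out each library. Leaving out male replicate 1 gave 78 lower and 337 higher, male replicate 3 gave 4 and 19, and female replicate 2 gave 8 lower; the causes were not tested. Scaled by library size only, 29 were higher and 23 lower. The mean summed level of the members, 139 CPM in males and 182 CPM in females, was 68.5 and 101.7 CPM without Cd37.

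Deviations from the group means correlated weakly between male and female libraries with the same replicate number (0.030, 0.034 and 0.048). Between different numbers, the correlations ran from -0.033 to -0.00063. Whether same-numbered libraries form pairs was not tested. The replicate block, under which Ms4a1 stayed at -2.36 (adjusted p = 0.0195, edgeR's quasi-likelihood test), rests on a shared number only. Depth limits Cd79a, Pax5 and Cd22, with 7, 2 and 4 counts in males and 12, 12 and 17 in females. Their counting intervals span several fold.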
